A study of Mus musculus with 4 samples.

Results

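The Krt4 Defb14 state is a set of luminal epithelial cells from mouse mammary organoids that carry transcripts of hormone receptors together with keratin and defence genes usually associated with squamous and mucosal surfaces. Its members were chosen by measured counts. A kept barcode had at least 3000 unique molecule counts (UMIs) and at most 15% mitochondrial UMIs. A luminal cell had at least 20 UMIs of Krt8 and Krt18 per 10000, fewer than 20 of Lcn2 and fewer than 10 of Krt5, Krt14 and Krt17. A receptor-positive cell also held at least 2 UMIs of Prlr, Esr1, Pgr, Cited1 and Prom1 together, and a member held at least 5 UMIs of Krt4, Krt78, Defb14 and Sprr2f together (sum A) and at least 2 times its UMIs of Ffar4, Calcb, Reg3b and Sprr1a (sum B). The rule found 803 members among 15344 kept barcodes (5.23%), or 15.8% of 5073 receptor-positive luminal cells.

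The organoids came from mammary fat pads, freed of lymph nodes, of virgin mice aged 8 to 9 weeks, and the labels give no strain or genotype. They were grown in a stiff matrix (STIFF), a collagen matrix (COL1), a soft matrix (SOFT) or Matrigel (MATR), a basement membrane extract, with 1 culture per condition. Dissociated cells were marked with hashtag antibodies and loaded as 2 pools, STIFF with COL1 on one droplet channel and SOFT with MATR on the other, for 3' single-cell RNA sequencing. Only the matrices' names tie a tag to a culture, and an exchange of tags would turn round each comparison within a pool. The STIFF and COL1 pool held 429 members among 7668 kept barcodes (5.59%, exact 95% interval 5.09% to 6.13%) and the SOFT and MATR pool 374 among 7676 (4.87%, 4.40% to 5.38%). Tags placed 269 members in STIFF, 41 in COL1, 51 in SOFT and 253 in MATR, and the rest carried no called tag or both tags. Cells of 1 culture are not replicates, so no difference was tested and every interval covers counting error only. Comparisons between pools set different channels beside each other, and there condition and channel cannot be told apart.

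Luminal cells of the mammary duct fall into hormone receptor-positive cells, which sense oestrogen, progesterone and prolactin, and receptor-negative secretory progenitors. Receptor-positive cells pass hormone signals to their neighbours through secreted factors such as amphiregulin, encoded by Areg, and Wnt4. Keratin 4 and keratin 78 are type II keratins best known from stratified epithelia of the mouth and oesophagus, beta-defensins are small antimicrobial peptides of epithelial surfaces, and small proline-rich (Sprr) proteins are precursors of the cornified envelope.

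Promoter windows are printed for Krt78 and Sprr2f of sum A, for Sprr1a of sum B and for Krt79, which lies between Krt4 and Krt78, because the counts of the first 3 decide membership and Krt79 stood higher in members. Each is the 250 bases before the annotated start, from RefSeq on GRCm38.p6, and capitals mark matches to the motifs named after them.
Krt78, chr15:101954288-101954537, minus strand: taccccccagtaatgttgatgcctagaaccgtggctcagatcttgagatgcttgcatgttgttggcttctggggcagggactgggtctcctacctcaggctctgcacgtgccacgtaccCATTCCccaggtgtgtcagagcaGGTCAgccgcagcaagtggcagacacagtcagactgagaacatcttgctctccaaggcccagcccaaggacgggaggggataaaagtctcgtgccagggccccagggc
Krt79, chr15:101940325-101940574, minus strand: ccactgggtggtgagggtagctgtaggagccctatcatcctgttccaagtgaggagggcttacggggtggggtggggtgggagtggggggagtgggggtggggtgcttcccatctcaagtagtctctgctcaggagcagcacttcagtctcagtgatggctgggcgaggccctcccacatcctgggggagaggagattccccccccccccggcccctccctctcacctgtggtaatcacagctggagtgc
Sprr2f, chr3:92364937-92365186, plus strand: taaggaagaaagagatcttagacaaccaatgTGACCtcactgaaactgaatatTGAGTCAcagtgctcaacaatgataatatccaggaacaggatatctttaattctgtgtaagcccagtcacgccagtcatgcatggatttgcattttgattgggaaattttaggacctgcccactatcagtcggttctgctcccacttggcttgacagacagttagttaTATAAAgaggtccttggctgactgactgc
Sprr1a, chr3:92485882-92486131, minus strand: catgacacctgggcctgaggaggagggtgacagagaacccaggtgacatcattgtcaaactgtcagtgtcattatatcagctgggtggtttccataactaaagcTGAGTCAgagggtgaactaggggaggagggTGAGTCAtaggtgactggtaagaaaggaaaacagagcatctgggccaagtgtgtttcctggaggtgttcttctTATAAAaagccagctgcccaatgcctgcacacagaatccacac

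Both strands were searched for 5 motifs. The AP-1 motif TGANTCA, held by 6.75% of 32851 windows of this length, occurred 1 time for Sprr2f, starting 197 bases before the start, and 2 times for Sprr1a, at 146 and 116 bases before it. TATAAA, held by 12.4% of windows, stood in both Sprr windows at 29 and 43 bases before the start. The TEAD motif GGAATG (12.6% of windows) matched the Krt78 window, and the nuclear receptor half-site GGTCA (35.2%) matched the windows of Krt78 and Sprr2f. The STAT motif TTCNNNGAA (7.02%) matched none of the 4, and the Krt79 window held no match to any of the 5. Sprr2f belongs to sum A and Sprr1a to sum B, and their windows align with 132 identical bases (52.8% of 250). The Krt78 and Krt79 windows align with 128 (51.2%). Unrelated windows were not aligned, so these figures have no scale and are not read as likeness. The Krt78 window lies inside the span annotated for that gene. Krt4 and Defb14 are not printed.

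The keratin members lie side by side. Krt4 (chr15:101918535-101924735), Krt79 (chr15:101929332-101940324) and Krt78 (chr15:101946001-101996624) are neighbours in the type II keratin cluster, followed by Krt8 (chr15:101996711-102004342) and by the type I gene Krt18 (chr15:102028216-102032026). Defb14 (chr8:19160244-19195309) and Defb1 (chr8:21776555-21795185) lie on 1 chromosome, as does Fam90a1a (chr8:21958714-21964303). Sprr2f (chr3:92365187-92366442) and Sprr1a (chr3:92483954-92485881) lie in 1 small proline-rich cluster. Sprr2, Klk1b and Fam90a1 genes have near-identical copies, so their counts are uncertain as to the copy.

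Members were sequenced about as deeply as the receptor-positive cells with the opposite profile and more deeply than those with neither. Their median was 11905 and 11804.5 UMIs per cell in the STIFF and COL1 pool and the SOFT and MATR pool, against 12054 and 12532 in cells of the opposite profile and 9203 and 9904 in cells of neither. The opposite profile, sum B of at least 5 and at least 2 times sum A, was called the Ffar4 Reg3b cells and held 3139 cells. Other receptor-positive cells, the cells of neither, had both sums under 5 and numbered 590. Shallow cells of either profile can be among them, since the limits are raw counts. Both sets serve as comparison cells. Because all 3 were cut on the same counts, differences between them describe the sets and were not tested. The pools shared 22 barcodes.

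The receptor genes Prlr, Pgr and Esr1 helped to choose the cells, so their levels are a description and do not support the label. Levels are CPM, the summed counts of a gene in a set scaled to a common total of all its genes' counts. Prlr, the prolactin receptor, stood at 3637 CPM in STIFF, 3008 in COL1, 2471 in SOFT and 2741 in MATR members, against 35.7 and 35.2 CPM in fibroblast-like cells of the 2 pools. Its level was high in all 4 cultures. Pgr, the progesterone receptor, stood at 220 CPM in STIFF, 268 in COL1, 237 in SOFT and 252 in MATR members, and Esr1, the oestrogen receptor, at 37.4, 34.4, 44.5 and 34.4 CPM in the same order. Genes outside the rule were also compared with receptor-negative luminal cells. Foxa1, a pioneer factor of oestrogen receptor binding, stood at 178 and 182 CPM in members of the 2 pools, against 51.7 and 42.8 CPM in receptor-negative luminal cells. Elf5, the transcription factor of secretory progenitors, stood at 7.29 and 7.83 CPM in members, against 227 and 244 CPM in receptor-negative cells. Kit, a progenitor receptor kinase, was at 2.88 and 2.21 CPM in members, against 93.9 and 95.3 CPM in receptor-negative cells. Levels of these genes in other receptor-positive cells were near those of members. Foxa1 stood at 179 and 162 CPM there, Elf5 at 11.2 and 7.25 CPM, and Kit at 2.72 and 3.41 CPM. The 18 receptor-positive markers outside the rule summed to 7476 and 6858 CPM in members, 7264 and 7052 in Ffar4 Reg3b cells, 5558 and 5090 in other receptor-positive cells and 3369 and 2788 in receptor-negative cells. Of the 18, Glycam1 was at 0 in members of both pools and Aqp3 at 0 in the STIFF and COL1 pool.

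Klk1b27, a tissue kallikrein listed as a marker of the state, did not follow it. It stood at 447 CPM in members of the STIFF and COL1 pool, against 119 CPM in Ffar4 Reg3b cells and 932 CPM in other receptor-positive cells. In the SOFT and MATR pool it was at 2.21 CPM in members, against 1.07 and 5.54 CPM. By culture it stood at 485 CPM in STIFF, 68.8 in COL1, 8.66 in SOFT and 1.16 in MATR members, and 1 cell held 76.3% of its UMIs in COL1. Within STIFF, 48 of 269 members carried a UMI of it. Its level was thus lower in members than in other receptor-positive cells of the STIFF and COL1 pool. In the SOFT and MATR pool the levels rest on 11 UMIs in members and 13 in other receptor-positive cells. Their intervals were 1.10 to 3.95 and 2.95 to 9.48 CPM, and on so few UMIs no direction is given there. Under a tag rule that takes the relatively larger hashtag, the Klk1b27 log2 ratio of STIFF over COL1 members was -0.51 in place of 2.65, so the tag calls decide that difference.

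Krt4 was the most widespread of the defining genes. It stood at 469 CPM in STIFF, 632 in COL1, 944 in SOFT and 826 in MATR members. The counting intervals of the 4 cultures did not overlap, and the members of the SOFT and MATR pool were above those of the STIFF and COL1 pool. Krt4 is part of sum A, so its level in members depends on the cut. Over all receptor-positive cells, given further below, the order differed, with SOFT the lowest culture. Krt4 was detected in 88.3% and 90.6% of members of the 2 pools. In cells thinned to 3000 UMIs it was found in 63.6% and 70.1% of members, against 25.9% and 27.8% of Ffar4 Reg3b cells, 16.0% and 14.5% of other receptor-positive cells and 0.467% and 1.56% of fibroblast-like cells, whose median depth was 15369.5 and 17275 UMIs. The rule itself sets the receptor-positive sets apart in Krt4, so these shares are a description.

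Krt78 stood at 219 CPM in STIFF, 195 in COL1, 297 in SOFT and 475 in MATR members. STIFF and COL1 overlapped in their intervals, and MATR was the highest. Krt78 and Defb14 are also part of sum A, so the cut shapes their levels and detection in members. Defb14 was the highest in STIFF, at 352 CPM in STIFF, 99.6 in COL1, 71.7 in SOFT and 176 in MATR members. COL1 and SOFT overlapped as the lowest, and a single cell carried 43.6% of the Defb14 UMIs of COL1 and 50% of those of SOFT. After thinning, Defb14 was found in 40.5% of STIFF, 7.32% of COL1, 9.80% of SOFT and 17.8% of MATR members, against 0.701% and 0.778% of fibroblast-like cells.

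**Figure D1:**
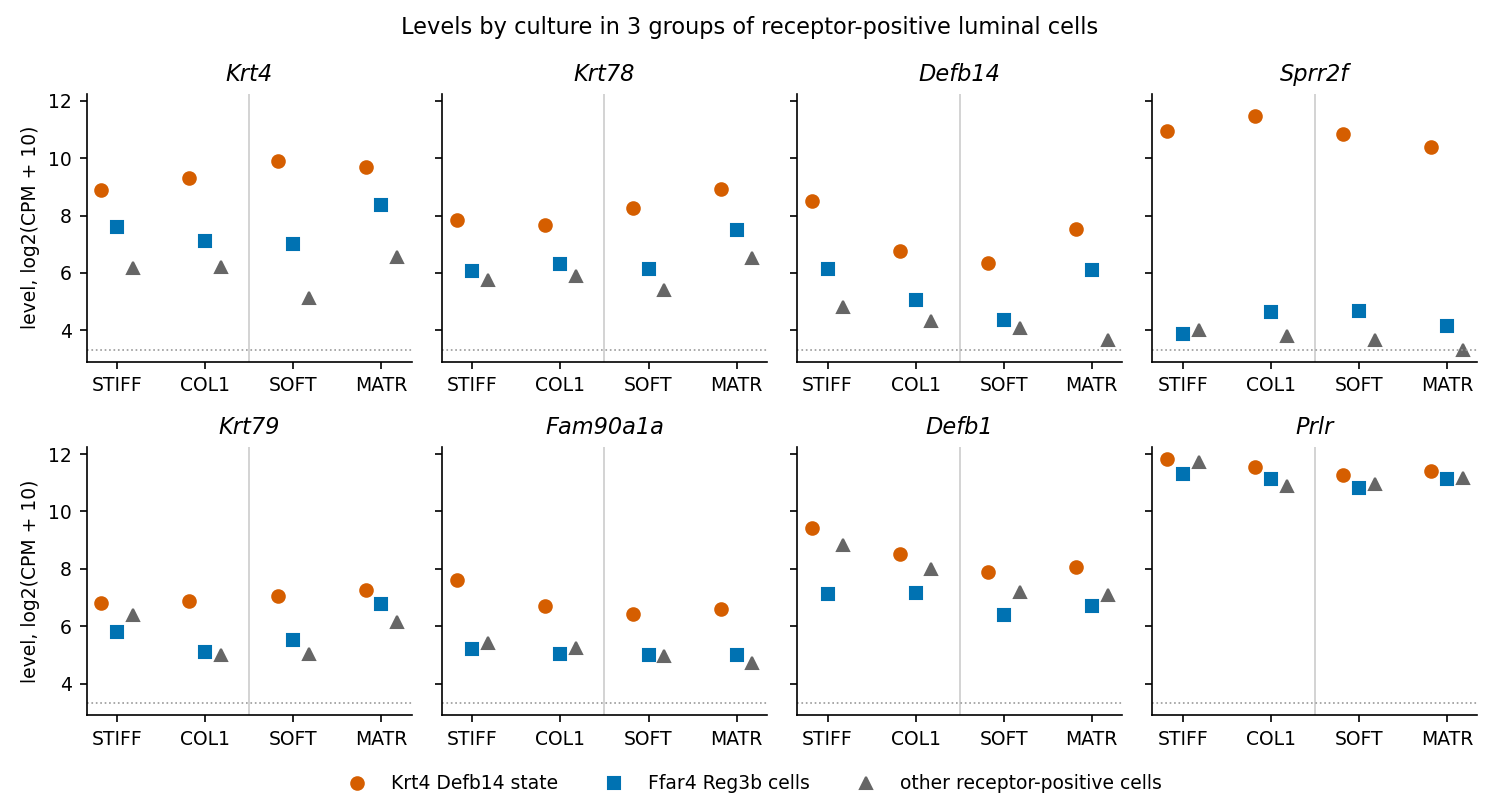
Levels of 8 genes by culture in members, Ffar4 Reg3b cells and other receptor-positive cells. The y axis is log2 of CPM plus 10, each point is the summed counts of 1 cell set in 1 culture, the dotted line is 0 CPM, and a vertical line parts the 2 droplet channels. Krt4, Krt78, Defb14, Sprr2f and Prlr were used to choose the cells, while Krt79, Fam90a1a and Defb1 were not, and these last stood higher in members than in Ffar4 Reg3b cells in all 4 cultures.

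Sprr2f dominated the sum by number of UMIs but came from few cells. Its 11867 UMIs made up 65.1% of sum A in the STIFF and COL1 pool and lay in 111 of 429 members (25.9%), of which the 43 highest held 85.7%. In the SOFT and MATR pool 9413 UMIs made up 57.2% of the sum and lay in 64 of 374 members (17.1%), of which the 38 highest held 95.7%. By culture it stood at 1991 CPM in STIFF, 2838 in COL1, 1810 in SOFT and 1336 in MATR members, carried by 74, 13, 10 and 35 cells. By detection the state is thus mostly a set of Krt4 and Krt78 cells, with a Sprr2f-rich minority. Krt78 was detected in 75.3% and 86.9% of members of the 2 pools, and Defb14 in 49.7% and 23.5%.

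Members were also grouped by the gene of sum A with the most UMIs. Krt4 led in 202 members of the STIFF and COL1 pool (47.1%) and 183 of the SOFT and MATR pool (48.9%). Defb14 led in 100 (23.3%) and 30 (8.02%), Krt78 in 55 (12.8%) and 115 (30.7%), and Sprr2f in 72 (16.8%) and 46 (12.3%). In COL1 no member of 41 was led by Defb14, which allows a share of up to 8.60% by the exact interval, and in SOFT 1 of 51 was. STIFF had 69 of 269 and MATR 25 of 253. Most members held UMIs of more than 1 of the 4 genes: 54 held 1 gene, 184 held 2, 160 held 3 and 31 held all 4 in the STIFF and COL1 pool, and 44, 232, 84 and 14 did so in the SOFT and MATR pool.

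**Figure D2:**
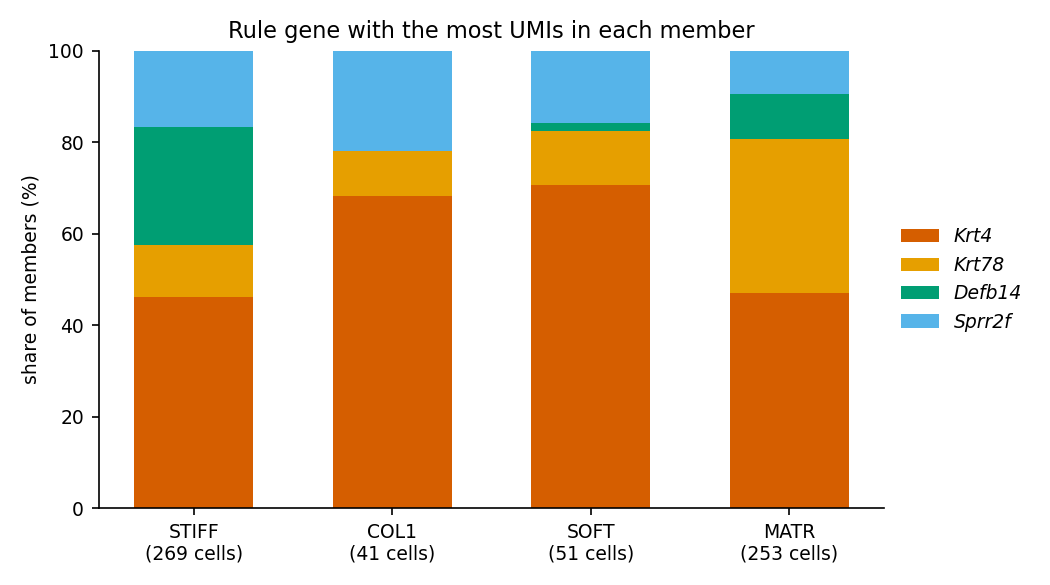
Share of members led by each of the 4 genes of sum A, as stacked bars by culture, with the y axis in percent of members. Krt4 led in 46.1% of STIFF, 68.3% of COL1, 70.6% of SOFT and 47.0% of MATR members, Defb14 led mainly in STIFF and Krt78 mainly in MATR.

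Genes outside sum A are given for these groups. Defb1, beta-defensin 1, stood at 894 and 718 CPM in Defb14-led members of the 2 pools, against 496 to 551 CPM and 213 to 309 CPM in members led by the other genes. Fam90a1a stood at 331 and 250 CPM in Defb14-led members, against 109 to 237 CPM and 66.3 to 139 CPM. Prlr, which takes part in the receptor step but not in sum A, stood at 4431 and 4483 CPM there, against 3065 to 3330 CPM and 2360 to 2948 CPM. Defb14-led members thus had the highest levels of these 3 genes in both pools. The groups also differed in culture, as Defb14 led in 69 STIFF and 0 COL1 members, and in 25 MATR and 1 SOFT members. A part of culture in these levels was not tested. Krt79 stood at 119 and 151 CPM in Krt4-led members, 121 and 127 in Krt78-led, 110 and 119 in Defb14-led, and 75.4 and 59.5 in Sprr2f-led members, which were the lowest. Lyz2, a macrophage lysozyme gene, stood at 1836 and 68.6 CPM in Sprr2f-led members.

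Transcripts of other cell types were present in some members. Macrophage counts (Lyz2, C1qa and Tyrobp) reached 20 per 10000 in 18 and 7 members of the 2 pools, and fibroblast counts (Col1a1 and Col3a1) in 4 and 2, and those cells are called mixed. Levels of these 5 genes without mixed cells are low by that choice. The 10 macrophage markers summed to 1353 CPM in STIFF, 5001 in COL1, 109 in SOFT and 1680 in MATR members, and to 95.9, 80.3, 109 and 113 CPM without the mixed cells. Ratios of macrophage genes between cultures are therefore given with and without them. The 10 fibroblast markers summed to 1316, 2228, 1161 and 1926 CPM in the same order, almost all from Dcn, the proteoglycan decorin, and to 1325, 2424, 1161 and 1962 CPM without the mixed cells. Dcn stood at 1316 and 1631 CPM in members of the 2 pools, against 1164 and 1466 CPM in Ffar4 Reg3b cells and 873 and 891 CPM in fibroblast-like cells. Col1a1, the main fibroblast collagen, stood at 43.8 and 72.5 CPM in members, against 5388 and 6297 CPM in fibroblast-like cells, which were chosen on it.

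Compared with Ffar4 Reg3b cells, members had more Fam90a1a, Defb1, Krt79, Smim38 and Gpx3, and less Clca3a2, a chloride channel accessory gene, Mt1 and Mt2. Among 5493 measured genes (at least 20 CPM in 1 set in each pool, the 19 genes of the rule left out), 33 stood at least 1.5-fold higher in both pools (0.601%) and 63 at least 1.5-fold lower (1.15%). Log2 ratios were taken after adding 10 CPM. Of these, 30 of the 33 and 58 of the 63 kept their direction in all 4 cultures, and 17 and 23 passed 1.5-fold in each. Without the mixed cells 31 genes were higher (0.567%) and 63 lower (1.15%), among them 31 of the 33 and 55 of the 63.

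Fam90a1a stood at 186 CPM in STIFF members against 27.2 in STIFF Ffar4 Reg3b cells, 94.1 against 22.4 in COL1, 76.7 against 22.0 in SOFT and 86.1 against 21.7 in MATR. Members were higher in each culture, and no member level fell within the range of the comparison cells. The fold of the summed pools was 6.42 (95% counting interval 5.77 to 7.15) and 4.08 (3.62 to 4.60). In fibroblast-like cells it was at 0.93 and 1.25 CPM. After thinning it was found in 22.6% and 16.8% of members, against 6.12% and 3.83% of Ffar4 Reg3b cells.

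Defb1 stood at 669 against 128 CPM in STIFF, 360 against 132 in COL1, 226 against 73.8 in SOFT and 258 against 94.1 in MATR, members first. All 4 member levels lay above all 4 comparison levels, with folds of 4.19 and 3.15 over the pools. The other antimicrobial genes measured did not share this: of 5, Defb1 was higher and Slpi, a secreted protease inhibitor, lower. Slpi stood at 71.9 and 60.8 CPM in members, against 137 and 111 CPM. Defb1 was not confined to receptor-positive cells. In basal cells, which were rich in Krt5 and Krt14, it stood at 251 CPM in STIFF, 357 in COL1, 515 in SOFT and 359 in MATR. Members were thus above basal cells in STIFF, near them in COL1 and under them in SOFT and MATR.

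Krt79, known in mouse from the hair canal and sebaceous duct, was the only one of 5 measured keratins outside the rule past 1.5-fold. It stood at 109 and 130 CPM in members of the 2 pools, against 42.9 and 59.3 CPM in Ffar4 Reg3b cells and 1.47 and 0.42 CPM in fibroblast-like cells. Its cluster neighbours Krt1 and Krt77 were at 2.20 and 0.678 CPM in members of the STIFF and COL1 pool and at 1.20 CPM each in the SOFT and MATR pool. None of 9 measured cornified envelope and squamous genes outside the rule passed 1.5-fold in both pools in either direction, with medians of -0.12 and -0.29.

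Gpx3, a secreted glutathione peroxidase, stood at 2410 CPM in STIFF members against 1045 in STIFF Ffar4 Reg3b cells, 932 against 365 in COL1, 571 against 163 in SOFT and 1217 against 649 in MATR. Members were higher within each culture, but the levels of the sets overlapped across cultures. Of 16 measured glutathione and antioxidant genes, 1 was past 1.5-fold (Gpx3), while 0.601% of all measured genes were higher. Fibroblast-like cells had Gpx3 at 153 and 152 CPM. Cbs, cystathionine beta-synthase of the transsulphuration pathway, stood at 85.3 and 60.4 CPM in members, against 27.4 and 14.3 CPM. Cdo1, cysteine dioxygenase, stood at 405 and 218 CPM in members, against 136 and 88.4 CPM. Acot1, an acyl-CoA thioesterase, stood at 544 and 270.5 CPM, against 205 and 117.0 CPM, and Fbp1, the gluconeogenic fructose bisphosphatase, at 29.0 and 29.5 CPM, against 6.57 and 9.07 CPM.

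Prom2, a prominin of membrane protrusions, stood at 232 and 212 CPM in members, against 90.1 and 79.7 CPM in Ffar4 Reg3b cells, the only one of 10 tight junction and apical membrane genes past 1.5-fold. Smim38, a small integral membrane protein gene, had log2 ratios of 1.86 and 1.48. The water channel gene Aqp5 stood at 49.0 and 65.2 CPM in members, against 25.03 and 29.3 CPM. Calca, which encodes calcitonin and calcitonin gene-related peptide, stood at 393 CPM in STIFF members against 165 in STIFF comparison cells, 346 against 165 in COL1, 69.2 against 52.0 in SOFT and 128 against 80.5 in MATR. Its relative Calcb is part of sum B. Jdp2, a partner of AP-1 proteins, stood at 88.7 and 92.5 CPM, against 37.2 and 31.4 CPM, while none of 17 AP-1 and immediate early genes passed 1.5-fold in both pools.

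Clca3a2 was the lowest in members by this ratio, at 37.4 CPM against 221 in STIFF, 88.7 against 390 in COL1, 39.6 against 348 in SOFT and 31.2 against 136 in MATR. Every member level lay under every comparison level, with log2 ratios of -2.37 and -2.36 over the pools. Tnip3, an inhibitor of NF-kB signalling, stood at 52.9 and 33.7 CPM in members, against 148 and 152 CPM. Dkk2, a modulator of Wnt signalling, was at 4.41 and 2.21 CPM, against 26.9 and 28.9 CPM. The growth factor gene Pdgfa stood at 69.03 and 91.5 CPM in members, against 168 and 234 CPM, and Cp, the copper oxidase ceruloplasmin, at 14.3 and 23.9 CPM, against 58.0 and 70.9 CPM.

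Both measured metallothioneins, metal-binding proteins, were lower in members in all 4 cultures. Mt1 stood at 791 against 1229 CPM in STIFF, 1148 against 2595 in COL1, 1589 against 3023 in SOFT and 1397 against 1897 in MATR, and the levels of the 2 sets overlapped across cultures. Clu, a secreted chaperone, stood at 917 and 676 CPM in members, against 1730 and 1861 CPM. Ndrg1, a stress and hypoxia response gene, stood at 65.5 and 227 CPM, against 219 and 394 CPM. Of 22 measured hypoxia and glycolysis genes, 1 was past 1.5-fold (Ndrg1), while 1.15% of all measured genes were lower. The integrin gene Itgb6 stood at 54.8 and 78.9 CPM in members, against 132 and 155 CPM. Serpinf1 had ratios of -1.04 and -0.99 that became 0.14 and -0.17 without the mixed cells.

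The list of hormone and growth factor receptors leaves out Prlr, Esr1 and Pgr, which the rule used. None of its 5 measured genes passed 1.5-fold in both pools in either direction, with medians of 0.04 and -0.09. The amphiregulin gene Areg stood at 3418 and 2991 CPM in members, against 3329 and 2951 CPM, and Wnt4 at 285 and 336 CPM, against 325 and 362 CPM. Tnfsf11, which encodes RANKL, a progesterone-induced signal, had no UMI in members of either pool, for which the exact intervals reach 0.626 and 0.740 CPM. None of 15 luminal lineage transcription factors passed 1.5-fold in both pools. The medians over all measured genes were -0.02 and -0.01.

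**Figure D3:**
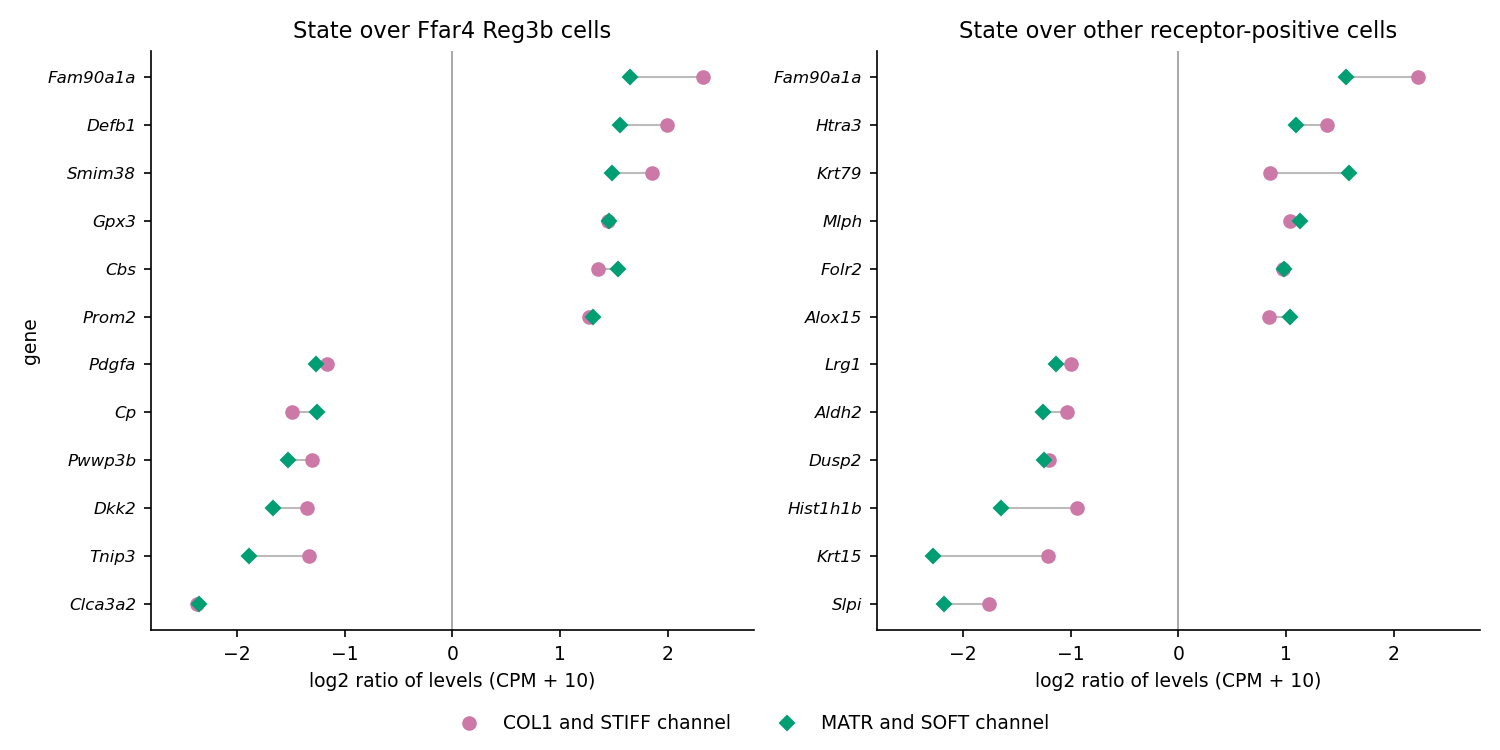
Log2 ratios in the 2 droplet channels of the 6 highest and 6 lowest genes by the ratio nearer 0, members over Ffar4 Reg3b cells on the left and members over other receptor-positive cells on the right. Each row is a gene, the x axis is the log2 ratio of CPM plus 10, purple circles are the STIFF and COL1 channel and green diamonds the SOFT and MATR channel. In the left panel Fam90a1a stands at 2.33 and 1.65 and Clca3a2 at -2.37 and -2.36.

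Against other receptor-positive cells, which had both sums under 5, fewer genes differed. Of these other cells, 33.9% and 29.1% held a UMI of Krt4 and 44.6% and 53.3% a UMI of Sprr1a in the 2 pools. Of 5522 measured genes, 22 stood at least 1.5-fold higher in members in both pools (0.398%) and 24 at least 1.5-fold lower (0.435%). Direction held in all 4 cultures for 19 and 15 of them, and 5 and 2 passed 1.5-fold in each. Without the mixed cells 18 genes were higher (0.328%) and 20 lower (0.364%), of which 18 and 18 were among those just counted, and Ccl7, a chemokine gene, left with ratios of -0.20 and 0.30.

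Fam90a1a was again the highest by ratio, at 186 against 32.4 CPM in STIFF, 94.1 against 27.7 in COL1, 76.7 against 20.9 in SOFT and 86.1 against 16.5 in MATR. All member levels exceeded all levels of the other cells, with folds of 5.84 (4.83 to 7.12) and 3.72 (2.83 to 4.96). Krt79 had log2 ratios of 0.85 and 1.58, and Defb1 of 0.74 in both pools. These 3 genes stood higher in members than in either comparison set.

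Other genes on the high side served varied roles. Htra3, a secreted serine protease, stood at 153 and 215 CPM in members, against 52.8 and 95.5 CPM. Mlph, melanophilin, an adaptor of vesicle transport, stood at 252 and 294 CPM, against 118 and 129 CPM. Folr2, a folate receptor, was at 69.5 and 47.6 CPM, against 30.5 and 19.2 CPM, and Alox15, a lipoxygenase, at 29.5 and 25.5 CPM, against 11.97 and 7.25 CPM. Gpx3 did not pass in both pools, with ratios of 0.34 and 0.997, and STIFF members stood at 2410 CPM against 2359 CPM in other STIFF cells.

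Lower than in other receptor-positive cells were Slpi, at 71.9 and 60.8 CPM in members against 268 and 310 CPM, and Aldh2, mitochondrial aldehyde dehydrogenase, at 38.2 and 34.1 CPM against 88.4 and 95.5 CPM. Ifitm3, an interferon-induced membrane protein, stood at 255 and 230 CPM, against 480 and 555 CPM, and Mt1 at 879 and 1515 CPM, against 1403 and 2829 CPM. Krt15 had ratios of -1.21 and -2.28 over the pools, but stood higher in members in 3 of the 4 tagged cultures. Of the lists, receptors outside the rule had 0 of 5 measured genes past 1.5-fold, cornified envelope genes 0 of 9, antioxidant genes 0 of 15 and phase genes of the cell cycle 0 of 4. Medians over all measured genes were -0.02 and -0.04.

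The share of receptor-positive cells in the state was high in STIFF and MATR and low in COL1 and SOFT. It was 24.9% in STIFF (269 of 1082, exact 95% interval 22.3% to 27.5%), 8.56% in COL1 (41 of 479, 6.21% to 11.4%), 6.04% in SOFT (51 of 844, 4.53% to 7.87%) and 20.8% in MATR (253 of 1218, 18.5% to 23.2%). STIFF and MATR overlapped in their intervals, as did COL1 and SOFT, and neither high culture overlapped a low one. Each pool thus held 1 high and 1 low culture. Among receptor-positive cells with no called tag the share was 20.9% (111 of 530) in the STIFF and COL1 pool and 8.72% (68 of 780) in the SOFT and MATR pool. Ffar4 Reg3b cells made up 46.8% in STIFF, 70.1% in COL1, 80.5% in SOFT and 56.8% in MATR, and other receptor-positive cells 16.5%, 10.9%, 7.58% and 6.404%. When every cell was thinned to 3000 UMIs before the rule was applied, the shares were 10.3%, 3.64%, 3.22% and 11.01% in the same order of cultures. Median depth of the members was 12382, 11498, 13099 and 12107 UMIs.

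**Figure D4:**
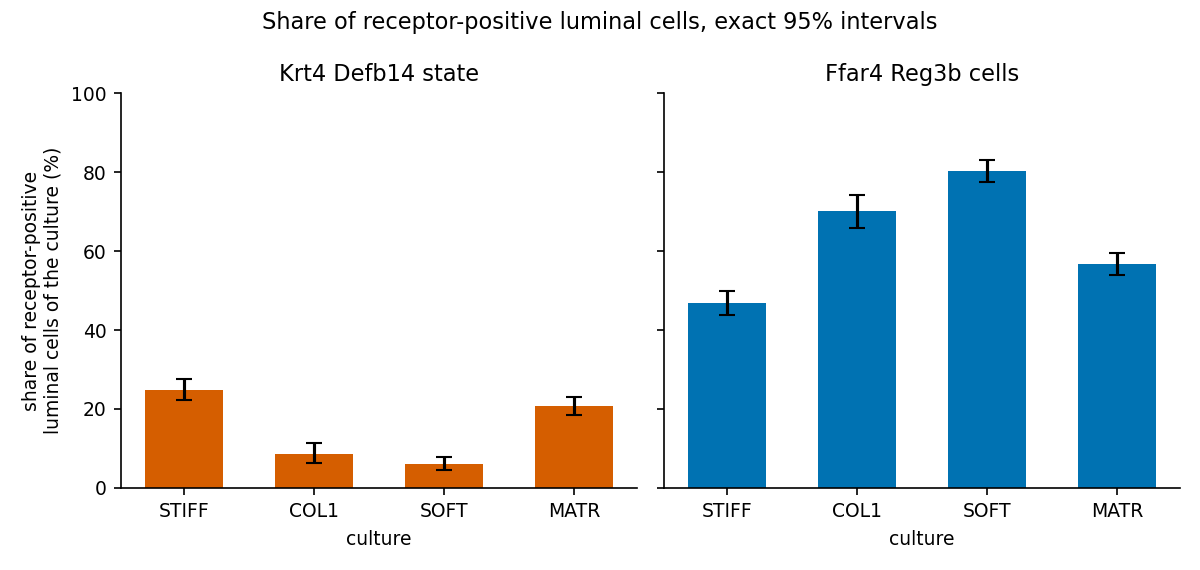
Share of receptor-positive luminal cells, in percent, that were members (left) or Ffar4 Reg3b cells (right) in each culture. Bars are single cultures and error bars are exact 95% binomial intervals, which cover counting error only. Members made up 24.9% in STIFF and 20.8% in MATR, and 8.56% in COL1 and 6.04% in SOFT.

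The summed level of the defining genes over all receptor-positive cells of a culture, members or not, does not depend on where the state was cut. Krt4 stood at 283 CPM in STIFF, 218 in COL1, 197 in SOFT and 477 in MATR receptor-positive cells, and Krt78 at 111, 105, 85.0 and 273 CPM. MATR was the highest for both keratins, and STIFF and COL1 differed little for Krt78. Defb14 stood at 161 CPM in STIFF, 41.2 in COL1, 17.2 in SOFT and 105 in MATR, and Sprr2f at 550 CPM, 313, 158 and 276 CPM. STIFF was the highest for both of these. Sprr1a of sum B stood at 2070 CPM in STIFF, 3132 in COL1, 3844 in SOFT and 3156 in MATR, the lowest in STIFF.

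Among the members themselves, single genes such as Gpx3, Ptn and Inhba had different levels between cultures. The 4 comparisons that follow share cultures, so their lists are not independent. STIFF over COL1 had 206 of 5913 measured genes at least 1.5-fold higher (3.48%) and 204 at least 1.5-fold lower (3.45%), and the interval of the fold excluded 1 for 166 and 192 of them. SOFT over MATR had 99 higher (1.71%) and 123 lower (2.12%) of 5791. STIFF over SOFT, across channels, had 280 higher (4.73%) and 164 lower (2.77%) of 5924, and COL1 over MATR had 298 higher (5.11%) and 220 lower (3.77%) of 5833. Without the mixed cells the shares of genes higher and lower were 3.58% and 3.91% for STIFF over COL1, 1.81% and 1.5% for SOFT over MATR, 4.08% and 2.97% for STIFF over SOFT, and 6.26% and 3.75% for COL1 over MATR, and 161 of the 206 and 135 of the 204 genes of the first comparison were again among them. With 41 members in COL1 and 51 in SOFT, 1 cell can carry a gene, so for some genes values are also given without the member with the most UMIs of the gene.

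Gpx3 stood at 2410 CPM in STIFF, 932 in COL1, 571 in SOFT and 1217 in MATR members. STIFF was the highest and SOFT the lowest, and none of the intervals overlapped. Without the highest member of each culture the levels were 2324, 850.1, 477 and 1127 CPM. The log2 ratio was 1.36 for STIFF over COL1 and -1.08 for SOFT over MATR. In Ffar4 Reg3b cells STIFF over COL1 was 1.49, so the culture difference was also present outside the state. Smim38 followed the same order of cultures, at 235, 86.9, 65.5 and 127 CPM in members, against 53.2, 36.2, 25.02 and 48.8 CPM in Ffar4 Reg3b cells.

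Ptn, the growth factor pleiotrophin, stood at 432 CPM in STIFF, 163 in COL1, 257 in SOFT and 186 in MATR members, and at 392, 91.2, 164 and 128 CPM without the highest member. STIFF was the highest in both readings. Isg15, an interferon-stimulated gene, stood at 73.1 CPM in STIFF and 23.5 CPM in COL1 members, and Fxyd2, a regulator of the sodium pump, at 205 and 94.1 CPM. Their log2 ratios were 1.31 and 1.05, and 1.36 and 1.28 without the highest members. Gdf15, a stress-induced cytokine, stood at 41.9 CPM in STIFF and 148 CPM in COL1 members, with a log2 ratio of -1.61 and of -0.98 without the highest member of each culture. Among macrophage genes, the STIFF over COL1 ratios were -3.01 for Pf4, -2.09 for Lyz2, -2.08 for Apoc2, -1.75 for Tyrobp and -1.63 for Apoe. Without the mixed cells they were -0.32, 0.22, 0.34, -0.07 and -0.15, and with Sprr2f left out of sum A they turned to 0.91, 3.71, 2.11, 2.54 and 3.72.

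Within the other pool, SOFT members stood above MATR members in Golim4, a Golgi protein gene, at 192 against 96.5 CPM, in Cntn2, a contactin, at 81.6 against 38.7 CPM, and in Bcl2l1, an inhibitor of apoptosis, at 65.5 against 31.5 CPM. The log2 ratios of these 3 genes were 0.92, 0.91 and 0.86, and 0.88, 0.83 and 0.84 without the highest members. Hmox1, haem oxygenase, had the highest ratio at 2.54, with 1 SOFT cell carrying 89.0% of its UMIs there, and the ratio was -0.17 without the highest member of each culture. Apoe, Lyz2 and the complement genes C1qa, C1qb and C1qc were lower in SOFT members, and without the mixed cells their ratios lay between -0.19 and 0.03. Klf2, a Kruppel-like transcription factor, stood at 244 CPM in SOFT and 446 CPM in MATR members.

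**Figure D5:**
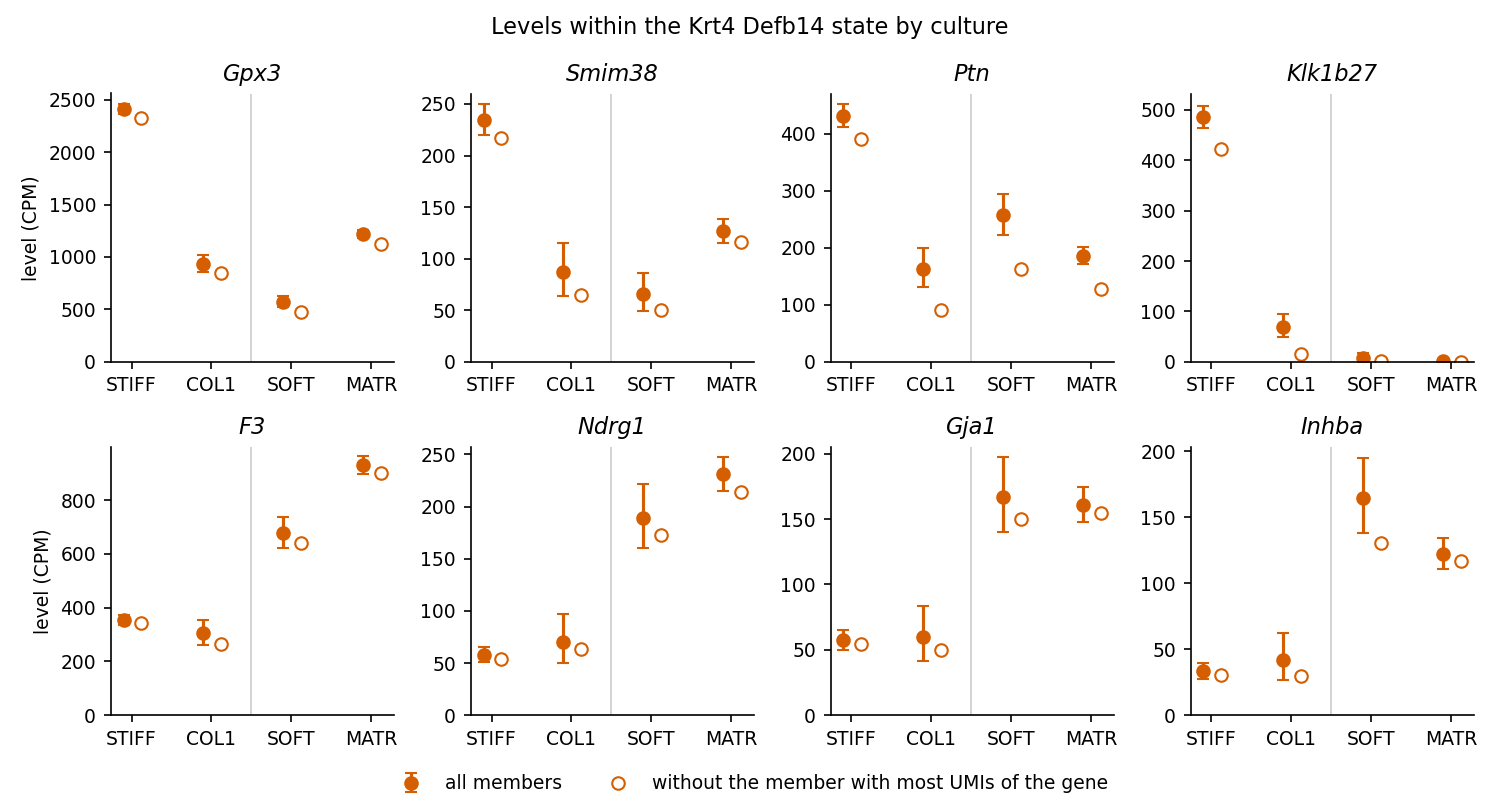
Levels of 8 genes in members by culture, in CPM on linear axes from 0. Filled points are the summed counts of all members with exact Poisson 95% intervals, and open points leave out the member with the most UMIs of that gene. Gpx3 is highest in STIFF at 2410 CPM, while Ndrg1, Gja1 and Inhba are lower in STIFF and COL1 than in SOFT and MATR, a direction that turned in COL1 over MATR for Ndrg1 after thinning and for Gja1 with Sprr1a left out of sum B.

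Several genes divided the channels more than the cultures within a channel. Ndrg1 stood at 57.8 CPM in STIFF, 70.6 in COL1, 189 in SOFT and 231 in MATR members. Gja1, the gap junction protein connexin 43, stood at 57.3, 59.7, 167 and 161 CPM, and Inhba, an activin subunit, at 33.2, 41.6, 164 and 122 CPM. The intervals of the 2 cultures of the STIFF and COL1 pool overlapped for each of these 3 genes, and both lay under those of SOFT and MATR. Foxq1, a forkhead transcription factor, stood at 18.7, 19.9, 74.2 and 65.3 CPM, and F3, tissue factor, at 354, 306, 679 and 931 CPM. Condition and channel cannot be told apart for these genes. The direction of COL1 over MATR was not stable for Ndrg1, at 0.00602 after thinning in place of -1.58, or for Gja1, at 0.0345 with Sprr1a left out of sum B. In Ffar4 Reg3b cells Gja1 had ratios of -1.17 for STIFF over SOFT and -0.03 for COL1 over MATR, against -1.39 and -1.29 in members.

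Gene lists summarised the same cultures. AP-1 and immediate early genes were at least 1.5-fold higher in STIFF than in SOFT members for 9 of 16 measured genes, against 4.73% of all measured genes, with a median of 0.78 against -0.01 over all genes, and the count was also 9 without the mixed cells. Fosb stood at 514 CPM in STIFF, 548 in COL1, 184 in SOFT and 280 in MATR members, and Dusp1, a phosphatase of the same response, at 202, 210, 65.5 and 119 CPM. Nr4a1, an immediate early nuclear receptor, stood at 54.1, 25.3, 8.66 and 33.8 CPM, with few UMIs in SOFT. SOFT was the lowest culture for all 3. In SOFT over MATR, 5 of 17 genes of the list were lower, against 2.12% of all measured genes, with a median of -0.32 against 0.04 over all genes. In STIFF over COL1, 1 of 16 was higher and none lower. STIFF and SOFT cells were loaded on different droplet channels. Whether the matrix or the channel set their difference in this list was not tested.

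Both metallothioneins were lower in STIFF than in SOFT members, with Mt2 at 130 CPM in STIFF, 281 in COL1, 281 in SOFT and 256 in MATR. YAP and TEAD target genes, which respond to cell tension, were lower in STIFF than in SOFT members for 3 of 5 measured genes (median -0.65), against 2.77% of all measured genes, and in COL1 than in MATR members for 2 of 5 (median -0.26), against 3.77%. Within the channels this list had 0 of 5 past 1.5-fold in STIFF over COL1, and 1 of 5 higher and none lower in SOFT over MATR. Receptors outside the rule had 1 of 4 higher in STIFF over COL1, the receptor kinase Erbb3 at 110 against 65.2 CPM, and 0 of 4 without the mixed cells. In SOFT over MATR 0 of 6 passed. Cited1, a transcriptional cofactor used in the receptor step, stood at 365 CPM in STIFF, 130 in COL1, 352 in SOFT and 277 in MATR members.

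Cells near the limits of the rule were compared once, as a description. Members with a sum A of 5 or 6 numbered 57 and 31 in the 2 pools, and cells just outside, with a sum of 3 or 4 and at least 2 times sum B, numbered 51 and 23. Fam90a1a stood at 103 and 80.1 CPM inside, against 19.6 and 63.0 CPM outside, and Defb1 at 361 and 174 CPM inside, against 392 and 210 CPM outside. Gpx3 stood at 1917 and 411 CPM inside, against 2852 and 1394 CPM outside. Of these 3 genes, Fam90a1a alone was higher just inside the limit in both pools. At the limit on the ratio of the sums, 50 members of the STIFF and COL1 pool had a sum A of 2 to 3 times sum B. Fam90a1a stood at 111 CPM in them, against 148 CPM in the 105 cells with a ratio of 1 to 2. Gpx3 stood at 2808 CPM, against 1481 CPM. Fam90a1a was thus lower just inside this limit in that pool, and Gpx3 higher. Cells with at least 5 UMIs of sum A but more of sum B numbered 434 and 804.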

How the data were processed

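Gene counts of organoid cells were analysed in 2 pools of 2 cultures each. The authors deposited unnormalized UMI counts, 1 per gene and barcode. The mm10 build, Seurat 4.2.0 and Cell Ranger 5.0.0 are named in the submitters' processing notes. Their filters and the use of each tool are not given in the sources used here. Each pool's 2 entries held identical gene counts and each pool was read once. The pools held 10615 and 8767 barcodes with 133608252 and 131036333 gene UMIs over 32285 genes, of which 26296 symbols matched RefSeq.

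The members, comparison sets and gene lists were chosen with earlier results of these data known, and they are not independent support. Hashtags were called with HTODemux (Seurat 5.3.0, R 4.3.3, quantile 0.99) on barcodes with at least 1000 UMIs and 500 genes. In pool sums, barcodes positive for both tags were kept, with leaving them out as an alternative, and no doublet caller was run. Receptor-negative luminal cells had at least 20 Lcn2 UMIs per 10000, and no limit was set on their receptor genes. Fibroblast-like and macrophage-like cells had at least 20 per 10000 of Col1a1 and Col3a1, or of Lyz2, C1qa and Tyrobp, and fewer than 20 of Krt8 and Krt18 and of the opposite marker sum. Raw counts were summed over cells and divided by their total to CPM (Python 3.11.15, numpy 2.4.6, scipy 1.17.1, pandas 2.3.3, matplotlib 3.10.9). Ratios have exact conditional binomial intervals, levels exact Poisson intervals and shares Clopper-Pearson intervals, at 95%. UMIs and cells of 1 culture are not independent samples, and no paired or replicated test was possible. Procedures were tested on simulated sums drawn with counting error only, which hold no spread between cells or cultures. Trimmed mean of M-values factors (edgeR 4.0.16) were an alternative scaling.

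Named genes were, by the ratio nearer 0 of the 2 pools, the 12 highest and 12 lowest of each comparison of cell sets, and the 8 highest and 8 lowest genes with at least 50 CPM of each comparison of cultures. Rule genes, hormone receptors, cell type markers, Klk1b27 and list members of highest and lowest ratio were added. Mitochondrial, ribosomal, haemoglobin, sex-linked and unnamed genes were left out. From 30 gene lists, those described were chosen after their values were seen, as were Areg, Wnt4, Gpx3, Klf2, Dusp1, Fosb and Nr4a1 where outside these ranks. Alternatives were the depth limit, both limits of the sums, thinning, tag calls, pseudocount, measured level, scaling and mean of per-cell CPM. Alternatives chosen after seeing the data were leaving out mixed cells, sum B without Sprr1a, sum A without Sprr2f and leaving out the highest cell of each culture. Sequences and positions are from RefSeq tables of GRCm38.p6, matched by symbol. A gene among those picked by rank is not reported here.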

Additional observations from a re-analysis of the deposited data

Results flagged for a closer look

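Members carried counts of Hashtag 3, an antibody row that the labels tie to none of the 4 cultures. These counts, 478 in the STIFF and COL1 pool and 769 in the SOFT and MATR pool, lie outside the counts the comparisons rest on. They came from 211 of 429 members and 242 of 374 members, with at most 34 and 31 in 1 cell. They made up 0.0454% and 0.162% of the tag counts of the members, against 0.0749% and 0.100% over all kept cells. Hashtag 1 and Hashtag 2 held 80345 and 972661 counts in members of the STIFF and COL1 pool and 282544 and 191217 in the SOFT and MATR pool.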

How the results depend on the processing

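No paired analysis was possible because each condition was 1 culture and the pools carried no replicate numbers. With a sum A of at least 10, the state's shares were 18.2% in STIFF, 5.64% in COL1, 4.50% in SOFT and 17.0% in MATR, and the genes higher were 331 for STIFF over COL1 and 172 for SOFT over MATR. With sum A at least 4 times sum B, the shares were 19.6% in STIFF, 3.79% in SOFT and 14.04% in MATR, 346 genes were higher for STIFF over COL1, 314 higher and 249 lower for SOFT over MATR, and 314 lower for STIFF over SOFT. Thinned to 3000 UMIs, members numbered 374, with shares of 10.3%, 3.64%, 3.22% and 11.01%. The members then had 8 genes higher than other receptor-positive cells, and the cultures 667 higher and 493 lower for STIFF over COL1, 374 and 269 for SOFT over MATR, 436 and 398 for STIFF over SOFT, and 518 and 549 for COL1 over MATR. Without Sprr1a in sum B, members numbered 1956, with shares of 46.9%, 25.5%, 20.6% and 58.7%, so MATR stood above STIFF. Genes were then 66 higher and 96 lower over Ffar4 Reg3b cells, and 76 and 80, 27 and 43, 172 and 95, and 87 and 29 for the same 4 comparisons of cultures. Without Sprr2f in sum A the STIFF share was 21.6%. With a pseudocount of 1 CPM, 39 genes were lower than in other receptor-positive cells, and the cultures gave 412 and 384, 283 and 236, 428 and 324, and 544 and 386. Measured at 50 CPM, 13 genes were lower than in other receptor-positive cells and 36 than in Ffar4 Reg3b cells, and the cultures gave 66 and 91, 27 and 47, 132 and 82, and 134 and 85. For SOFT over MATR, 49 genes were higher under the relative tag rule and 63 under trimmed mean of M-values scaling. Of 201 such counts and shares, 137 moved little and 64 are those given here.

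Of 1984 gene ratios under these settings, 1594 moved little, 341 moved and 49 turned. At a ratio of 4, Hmox1 was -0.44 for SOFT over MATR and 0.39 for STIFF over SOFT. Thinned, Ccl7 was -0.36 and -1.67, Krt15 0.29 and Hist1h1b 0.28 over other cells, Serpinf1 0.0548 over Ffar4 Reg3b cells, Sbsn -0.18 for STIFF over COL1, Gdf15 0.0546 for STIFF over SOFT and Ndrg1 0.00602 for COL1 over MATR. Without cells above the 95th percentile of UMIs, Hmox1 was -0.23 for SOFT over MATR and 0.16 for STIFF over SOFT, and without the highest cell it was 0.0464 for STIFF over COL1, -0.17 for SOFT over MATR and 0.13 for STIFF over SOFT. Under the relative tag rule Klk1b27 was -0.51 for STIFF over COL1. Without mixed cells, Ccl7 was -0.20 over other cells and Serpinf1 0.14 over Ffar4 Reg3b cells. In the same setting Lyz2 was 0.22, Apoc2 0.34 and Hmox1 0.39 for STIFF over COL1. Apoe was 0.0261, C1qa 0.0296, C1qc 0.00246, Wfdc17 0.0352, Ctss 0.0883 and Saa3 0.35 for SOFT over MATR. Lyz2 was -0.0268 and C1qa -0.0878 for STIFF over SOFT, and Ccl2 -0.0770, Ccl6 -0.18, Apoc2 -0.21 and Clec4n -0.21 for COL1 over MATR. Without Sprr1a, Ccl7 was -0.0481, Serpinf1 0.20 and Gja1 0.0345 for COL1 over MATR. Without Sprr2f, Pf4 was 0.91, Lyz2 3.71, Apoc2 2.11, Tyrobp 2.54, Hmox1 0.42 and Apoe 3.72 for STIFF over COL1, Hmox1 -0.50 for SOFT over MATR and 0.42 for STIFF over SOFT, and Pf4 -0.81, Ccl2 -1.58, Ccl6 -1.37, Apoc2 -2.09 and Clec4n -1.34 for COL1 over MATR. Scaling by trimmed mean of M-values and a limit of 5000 UMIs turned none of 160 gene ratios each. The cause of the turned ratios was not tested, and leaving Sprr1a or Sprr2f out of a sum also changed which cells were members. Levels in COL1 and SOFT rest on 41 and 51 members.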
